A study of Homo sapiens with 4 samples.

Results

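The 10 genes described here encode collagens, laminin chains and linker proteins of the basement membrane: COL4A1, COL4A2, COL7A1, COL8A1, COL15A1, COL18A1, LAMB1, LAMC1, NID1 and HSPG2. They were taken by symbol from a table of 63241 genes, and each symbol matched 1 row. RNA was sequenced from LX-2, an immortalised human line of hepatic stellate cells, in 4 groups of 1 library each. Every culture was first starved for 24 h in medium with 0.5% serum. The control group is labelled as control only, the TGF-β group received TGF-β at 20 ng/mL and is also labelled DMSO, a vehicle, and the other two groups received the same dose of TGF-β with BDS4 or with RVX-208 at 5 µM, all for 24 h. Whether the control cells received DMSO is not stated in the labels. RVX-208, also called apabetalone, blocks BET proteins, which read acetylated histones, and prefers the second of their bromodomains. BDS4 is a code name, and the series as a whole concerns covalent inhibitors aimed at the first of these bromodomains. All cultures are of 1 line grown without the neighbouring cells of the liver.

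The basement membrane is a thin sheet of matrix under epithelia and around vessels, fat and muscle cells. Laminin trimers polymerise at the cell surface, type IV collagen forms a second network, and nidogen and the heparan sulfate proteoglycan perlecan tie the networks together. In normal liver the space between hepatocytes and the sinusoid holds only a loose matrix of this kind, and in fibrosis stellate cells fill it with fibrillar collagen and with a more continuous basement membrane. COL4A1 and COL4A2 encode the chains of the commonest type IV collagen, and LAMB1 and LAMC1 encode a β and the γ chain shared by most laminins. NID1 encodes nidogen-1 and HSPG2 encodes perlecan. COL7A1 forms the anchoring fibrils below epithelial basement membranes, COL8A1 is a short-chain network collagen of vessel walls, and COL15A1 and COL18A1 are proteoglycan collagens of the outer basement membrane zone, the latter being the precursor of endostatin.

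COL4A1 and COL4A2 lie head to head on chromosome 13 and share a promoter. In the RefSeq promoter table (GRCh38.p14), COL4A1 starts at position 110307157 on the minus strand and COL4A2 at 110307284 on the plus strand. The 126 bases between these starts are shown because both type IV collagen genes are transcribed outwards from them. They are followed by the 250 bases before the starts of LAMB1 and LAMC1, which lie on different chromosomes and whose products join in 1 trimer. The 250 bases before both RefSeq starts of COL18A1 are shown because this gene had a pattern of its own. Capitals mark exact matches, on either strand, to the CCAAT box (CCAAT), the GC box (GGGCGG) or a TATA box (TATAAA), and overlapping matches run together.
COL4A1 to COL4A2, chr13:110307158-110307283, plus strand: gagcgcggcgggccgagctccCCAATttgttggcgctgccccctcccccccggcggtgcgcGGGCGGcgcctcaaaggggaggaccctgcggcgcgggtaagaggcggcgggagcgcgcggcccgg
LAMB1, chr7:108003162-108003411, minus strand: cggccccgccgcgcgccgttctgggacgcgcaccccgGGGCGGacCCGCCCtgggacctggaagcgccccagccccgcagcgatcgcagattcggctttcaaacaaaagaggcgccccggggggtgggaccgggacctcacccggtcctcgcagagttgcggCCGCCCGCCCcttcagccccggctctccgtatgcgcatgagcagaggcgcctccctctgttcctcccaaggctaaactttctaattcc
LAMC1, chr1:183023170-183023419, plus strand: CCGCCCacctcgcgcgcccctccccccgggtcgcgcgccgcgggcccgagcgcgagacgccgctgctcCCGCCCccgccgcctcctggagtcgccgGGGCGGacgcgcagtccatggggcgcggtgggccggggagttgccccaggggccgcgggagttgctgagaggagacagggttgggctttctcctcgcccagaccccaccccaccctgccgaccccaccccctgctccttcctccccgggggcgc
COL18A1, first start, chr21:45404915-45405164, plus strand: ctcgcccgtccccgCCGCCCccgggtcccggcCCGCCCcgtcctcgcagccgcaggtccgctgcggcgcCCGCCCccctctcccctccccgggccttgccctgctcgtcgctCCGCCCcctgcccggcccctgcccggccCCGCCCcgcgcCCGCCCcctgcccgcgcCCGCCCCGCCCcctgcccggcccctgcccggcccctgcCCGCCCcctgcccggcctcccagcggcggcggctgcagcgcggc
COL18A1, second start, chr21:45455272-45455521, plus strand: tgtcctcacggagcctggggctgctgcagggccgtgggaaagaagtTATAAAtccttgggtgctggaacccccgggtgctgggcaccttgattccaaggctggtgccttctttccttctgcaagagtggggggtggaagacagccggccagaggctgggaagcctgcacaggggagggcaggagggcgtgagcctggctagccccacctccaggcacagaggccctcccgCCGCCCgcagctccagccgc

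Of the 10 genes, 9 had an entry in that table, with 10 windows of 300 bases (250 before and 50 after the start). COL8A1 had no entry. The stretch between the type IV collagen starts held 1 CCAAT box and 1 GC box and was 80.2% G and C. A GC box was found in 10 of the 10 windows, against 45.0% of 35116 promoter windows in the table. The windows of COL4A1 and COL4A2 share 226 bases. The 10 windows were 62.3% to 86.7% G and C, and no background of like content was drawn. CCAAT was found in 3 of 10 (34.6% of all windows), in COL4A1, COL4A2 and NID1, of which the first pair read the same DNA. TATAAA was found in 2 of 10 (11.5%), in COL7A1 and at the second start of COL18A1, and the first start of COL18A1 held 9 GC boxes. The letters CAGAC, a core to which SMAD proteins bind, were found in 3 of 10 (45.3%), and TGANTCA, the AP-1 site, in 0 of 10 (7.71%). These are matches of letters and not measured binding sites.

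Each library stood for 1 culture, so no difference could be set against variation between cultures and no test across replicates was run. Levels are counts per 1000000 counts after TMM scaling (CPM), which corrects library totals for composition. Each ratio between 2 libraries carries a 95% conditional exact (Clopper-Pearson) interval in brackets, which covers counting error only. A gene was said to rise or fall where the ratio was at least 2 and the interval excluded 1. The rule was applied to 16099 genes that reached 1 CPM in any library, and all 10 genes passed this filter. Library totals ran from 17022369 to 22503094 counts, and a floor of 3 counts ran from 0.126 to 0.178 CPM. Stellate cell markers summed to between 4218 and 8448 CPM over 12 genes, mostly VIM and COL1A1, while LRAT, a vitamin A enzyme of quiescent stellate cells, had 0 counts in every library. Other markers of this list were also low: DES had at most 11 counts in any library, LUM at most 8 and DCN at most 3. ACTA2 had 21.5, 27.0, 19.2 and 24.6 CPM in control, TGF-β, BDS4 and RVX-208. Hepatocyte markers summed to between 1.72 and 3.89 CPM over 6 genes and endothelial markers to between 12.2 and 15.7 CPM over 7 genes, with STAB2 at 0 counts throughout. In a line, a change in RNA per cell and a change in the share of cells that make it cannot be told apart.

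The 10 genes together took 0.211% of all counts in the control (0.209 to 0.213), 0.460% with TGF-β (0.457 to 0.463), 0.117% with BDS4 (0.115 to 0.118) and 0.397% with RVX-208 (0.394 to 0.400). The type IV collagen pair made up 45.9% of these counts in the control, 64.9% with TGF-β, 40.8% with BDS4 and 64.4% with RVX-208. The laminin pair made up 38.7%, 25.6%, 37.7% and 27.4% in the same order. The set was thus dominated by 4 genes, and its make-up with RVX-208 lay close to that with TGF-β alone.

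**Figure D1:**
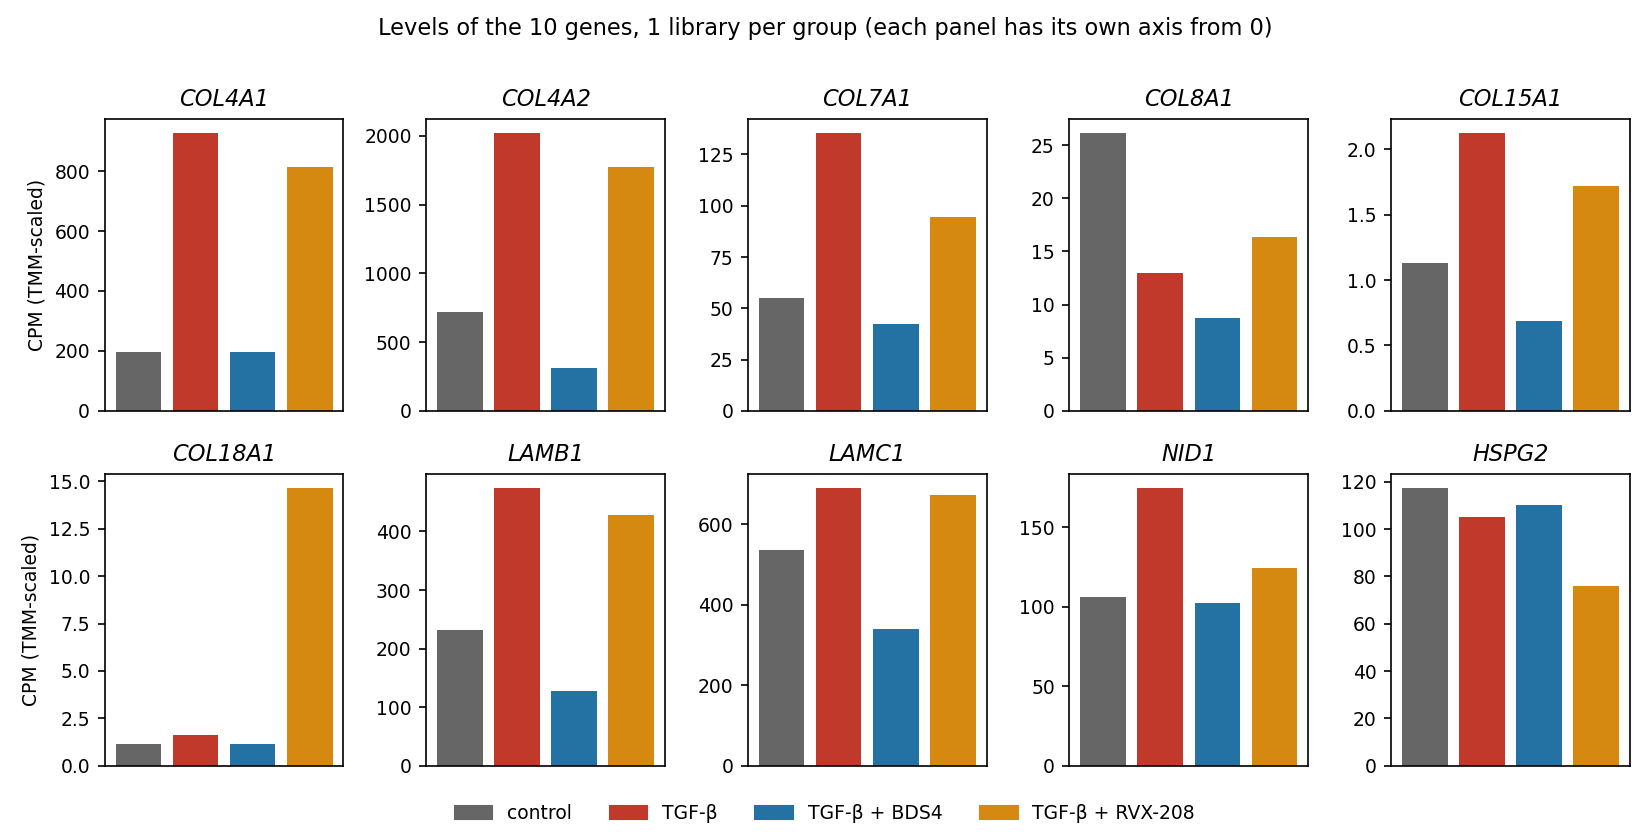
Level of each of the 10 genes in CPM (vertical axis, from 0, own scale per panel) in the 4 libraries, 1 bar per library. COL4A1, COL4A2, COL7A1, LAMB1 and NID1 are highest with TGF-β and low with BDS4, COL18A1 stands high with RVX-208 alone at 14.7 CPM, and HSPG2 lies between 75.7 and 118 CPM.

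Levels between genes can be compared only per length, and here the answer depended on which length was used. By the deposited FPKM, LAMC1 led in the control with 59.0, followed by COL4A2 with 30.7, NID1 with 18.6, COL4A1 with 9.75 and LAMB1 with 8.65. HSPG2 had 5.52, COL7A1 4.28, COL8A1 1.57, COL15A1 0.159 and COL18A1 0.106. With TGF-β, COL4A2 led with 82.5 FPKM, ahead of LAMC1 with 72.3 and COL4A1 with 44.0. With BDS4, LAMC1 led with 33.1 and NID1 was second with 16.0, ahead of COL4A2 with 11.7. With RVX-208, COL4A2 had 70.7 and LAMC1 68.8 FPKM. The gene lengths behind these FPKM values were 1.03 times (NID1) to 4.94 times (LAMB1) those of the longest protein-coding transcript in GENCODE 29. Per kilobase of that transcript, and per total count without TMM scaling, COL4A2 led in all 4 libraries, with 117, 315, 44.8 and 270 CPM per kilobase in control, TGF-β, BDS4 and RVX-208. On both scales COL8A1, COL15A1 and COL18A1 were the 3 lowest of the set in every library.

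TGF-β was first set against the control, to see which of these genes differed with the cytokine. Type IV collagen rose most. COL4A1 (ENSG00000187498, chr13:110148963-110307233) had 196 CPM in the control, 928 with TGF-β, 196 with BDS4 and 813 with RVX-208. COL4A2 (ENSG00000134871, chr13:110305812-110513209) had 717, 2024, 309 and 1774 CPM in the same order. Both were high in the same 2 libraries, those with TGF-β alone and with RVX-208. COL4A1 rose 4.74-fold with TGF-β (4.59 to 4.89) and COL4A2 2.82-fold (2.77 to 2.87).

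COL7A1, the anchoring fibril collagen, had 54.8, 136, 42.5 and 94.6 CPM, again in the order control, TGF-β, BDS4, RVX-208. It rose 2.48-fold with TGF-β (2.32 to 2.64). COL15A1 was near the limit of detection, with 27, 47, 14 and 29 counts, and stood 1.88-fold higher with TGF-β (1.15 to 3.14), under the 2-fold rule. COL18A1 had 27 counts in the control and 36 with TGF-β, a ratio of 1.44 (0.851 to 2.47). The network collagen COL8A1 went the other way, with 26.2 CPM in the control, 13 with TGF-β, 8.78 with BDS4 and 16.4 with RVX-208. It fell 2.01-fold (1.75 to 2.32), at the edge of the rule.

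Of the laminin chains, LAMB1 had 232 CPM in the control, 475 with TGF-β, 128 with BDS4 and 429 with RVX-208, and rose 2.05-fold (1.98 to 2.12). This call ended under total-count scaling, where the log2 ratio was 0.96. LAMC1 had 537, 691, 339 and 672 CPM, and its ratio of 1.29 (1.26 to 1.32) did not meet the rule. Neither linker was called. NID1 had 106, 175, 103 and 125 CPM, and was 1.65-fold higher with TGF-β (1.57 to 1.74). HSPG2 had 118, 105, 110 and 75.7 CPM, a ratio of 0.895 for TGF-β to control (0.847 to 0.946). In all, 4 of the 10 genes rose and 1 fell, against a background of 9.68% of genes tested that were called in either direction (5.32% higher, 4.37% lower). The median log2 ratio of the 10 was 0.79, and that of all genes tested was -0.01 (medians use a prior count of 2).

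BDS4 was then set against TGF-β alone, among cultures that all received the cytokine. This and the TGF-β to control comparison share the TGF-β library, so a deviation of that library enters both. Of the 6 collagen genes 4 fell, and of the laminin genes both. COL4A2 fell 6.56-fold (6.39 to 6.73), COL4A1 4.73-fold (4.57 to 4.89), LAMB1 3.70-fold (3.55 to 3.86) and COL7A1 3.19-fold (2.96 to 3.44). COL15A1 fell 3.10-fold (1.68 to 6.10), to 14 counts, and LAMC1 2.04-fold (1.98 to 2.10), at the edge of the rule. The other four genes were not called. NID1 was 1.70-fold lower (1.62 to 1.8), COL8A1 1.48-fold lower (1.22 to 1.79) and COL18A1 1.45-fold lower, with an interval that includes 1 (0.834 to 2.56). HSPG2, which encodes perlecan, had a ratio of 1.04 (0.986 to 1.11). The count was thus 6 of 10 lower and 0 higher, where 32.2% of all genes tested were called (17.7% lower, 14.5% higher). The median log2 ratio was -1.27 for the 10 genes, -0.01 for all genes tested and 0.04 for the 3562 tested genes with a protein-coding transcript of at least 5000 bases, a length that each of the 10 genes exceeds (this set was chosen after seeing the data).

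Set against the control, the BDS4 library held 2 of the 10 genes lower and 0 higher, where 33.1% of genes tested were called (14.9% higher, 18.2% lower). COL4A1 stood at the control level, with a ratio of 1.0 (0.961 to 1.05), while COL4A2 fell 2.32-fold below it (2.26 to 2.39). COL8A1 fell 2.98-fold below the control (2.52 to 3.54), the lowest level of that gene in any library. LAMB1 was 1.81-fold lower than the control (1.72 to 1.89) and LAMC1 1.58-fold lower (1.54 to 1.63), both under the rule. Total-count scaling moved the median of all genes by -0.17 in this comparison and called LAMB1 lower as well, at a log2 ratio of -1.02. It also moved the split of calls over all genes from 2400 higher and 2932 lower to 1877 and 3546. NID1, at a ratio of 0.970 (0.915 to 1.03), had an interval that includes 1, and HSPG2 had 0.936 (0.885 to 0.990). How near COL4A1 and NID1 lay to the control depended on scaling. With total-count scaling their log2 ratios were -0.17 and -0.21, and neither was called.

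The BDS4 library also differed in measures that bear on RNA quality. Mitochondrial ribosomal RNA took 0.903% of its counts, against 0.212% to 0.248% in the other three, and the nuclear RNA NEAT1 had 968 CPM against 60.6 to 127. MALAT1, another nuclear RNA, had 40.9, 24.4, 69.0 and 69.1 CPM in control, TGF-β, BDS4 and RVX-208, equally high with both compounds. Epithelial markers, led by KRT18 and KRT8, summed to 172 CPM over 6 genes against 438 to 762. The 3 of them that passed the filter all fell against TGF-β alone, while EPCAM had at most 4 counts in any library. All 3 endothelial markers that passed the filter were called against TGF-β alone: TEK fell from 9.56 to 0.441 CPM and VWF from 2.17 to 0.588 CPM, while KDR rose from 2.90 to 10.2 CPM. Of 8 stellate cell markers that passed, 4 fell and 0 rose, 3 of them fibrillar collagens and the other PDGFRB, which fell 22.7-fold (18.9 to 27.4). VIM and ACTA2 were not called. These marker lists are read against the 32.2% of all genes tested that were called in BDS4 against TGF-β (17.7% lower, 14.5% higher). Immune cell markers summed to 20.0 CPM over 5 genes, against 11.6 to 34.9. Their part in the results with BDS4 was not tested.

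RVX-208 was set against the same TGF-β library. None of the 10 genes fell, and COL18A1 alone rose, where 8.19% of genes tested were called (2.94% higher, 5.25% lower). COL4A1 and COL4A2 each stood 1.14-fold lower than with TGF-β alone (1.12 to 1.17 and 1.12 to 1.16). LAMB1 was 1.11-fold lower (1.08 to 1.14) and LAMC1 had a ratio of 0.972 (0.949 to 0.996). COL7A1 was 1.43-fold lower (1.35 to 1.52), NID1 1.41-fold lower (1.33 to 1.48) and HSPG2 1.39-fold lower (1.30 to 1.49), all under the rule. COL8A1 was 1.26-fold higher (1.07 to 1.49). The median log2 ratio was -0.19, against -0.00 over all genes tested. In the RVX-208 library NEAT1 rose 2.10-fold over TGF-β alone (1.96 to 2.25) and MALAT1 2.83-fold (2.55 to 3.14), while mitochondrial ribosomal RNA took 0.230% of counts. Of the 8 stellate cell markers 3 fell, among them PDGFRB, which fell 2.14-fold (2.0 to 2.30), and the part of these values in the results was not tested.

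COL18A1 (ENSG00000182871, chr21:45405137-45513720) had 27 counts in the control, 36 with TGF-β, 23 with BDS4 and 247 with RVX-208. The RVX-208 library alone was high, at 14.7 CPM against 1.13 to 1.63 in the others. The rise was 9.0-fold over TGF-β (6.33 to 13.1) and 13-fold over the control (8.71 to 20.1). The count table sums all transcripts of the gene, so it does not show from which of the 2 starts, 50357 bases apart, these reads came. SLC19A1, on the opposite strand, covers 16.4% of the COL18A1 exon bases in GENCODE 29 and had 4 counts with RVX-208. Against the control, the RVX-208 library held 3 of the 10 genes higher and 0 lower, COL4A1 (4.15-fold, 4.01 to 4.29), COL4A2 (2.47-fold, 2.43 to 2.52) and COL18A1, where 12.3% of genes tested were called (5.39% higher, 6.88% lower).

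**Figure D2:**
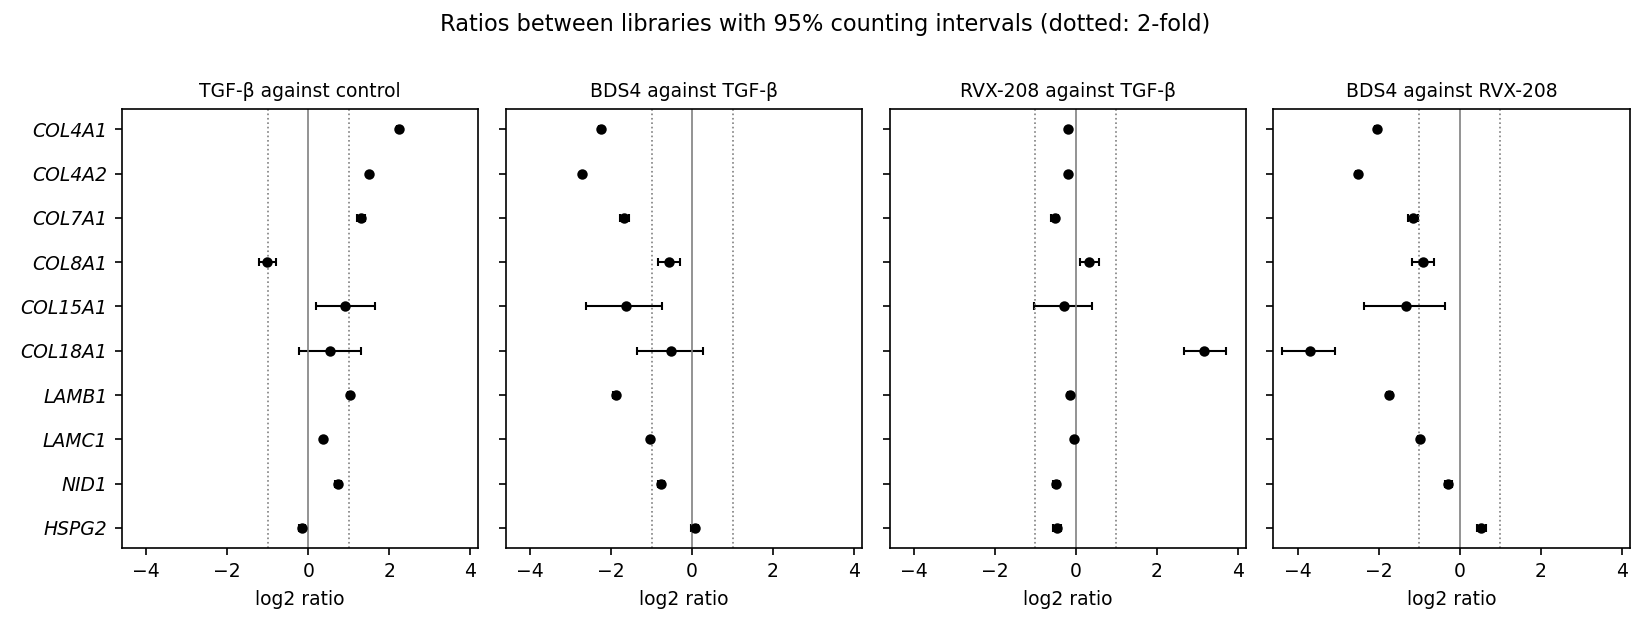
Log2 ratio (horizontal axis) of each of the 10 genes in 4 comparisons, 1 panel each, where BDS4 and RVX-208 stand for libraries that also received TGF-β. Points are ratios of TMM-scaled counts, bars are 95% counting intervals and dotted lines mark 2-fold; the panel of BDS4 against TGF-β has 6 genes called lower, and that of RVX-208 against TGF-β has COL18A1 alone called.

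BDS4 and RVX-208 were compared directly at the same dose, 5 µM, and time, 24 h, over the 10 genes. Of the 10 genes, 6 were lower with BDS4 than with RVX-208 and 0 higher, where 24.8% of genes tested were called (13.1% lower, 11.7% higher). COL18A1 was 13-fold lower with BDS4 (8.47 to 20.9), COL4A2 5.75-fold (5.59 to 5.91), COL4A1 4.14-fold (4.0 to 4.29) and LAMB1 3.34-fold (3.19 to 3.49). COL15A1 and COL7A1 were the other two, 2.51-fold (1.28 to 5.14) and 2.23-fold lower (2.05 to 2.42). LAMC1, at 1.98-fold lower (1.92 to 2.04), and COL8A1, at 1.87-fold lower (1.54 to 2.27), missed the rule, and total-count scaling called LAMC1 with a log2 ratio of -1.06. NID1 was 1.21-fold lower (1.14 to 1.29). HSPG2 was the one gene of the set higher with BDS4, 1.45-fold (1.36 to 1.56), and this was not called. The median log2 ratio was -1.18, against -0.01 over all genes tested.

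The ratio of partner chains within a library does not depend on scaling. Type IV collagen made by these genes holds both chains in 1 molecule, with more of the COL4A1 product than of the COL4A2 product. The COL4A1 to COL4A2 ratio of counts was 0.273 in the control (0.265 to 0.282), 0.459 with TGF-β (0.451 to 0.466), 0.636 with BDS4 (0.612 to 0.662) and 0.459 with RVX-208 (0.449 to 0.468). The balance thus moved towards COL4A1 with TGF-β and further with BDS4, although both genes fell in the BDS4 library. As odds ratios with exact 95% intervals, the change was 1.68 for TGF-β against control (1.62 to 1.74), 1.39 for BDS4 against TGF-β (1.33 to 1.45) and 1.0 for RVX-208 against TGF-β (0.974 to 1.03). BDS4 against RVX-208 gave 1.39 (1.33 to 1.45). In FPKM the ratio was 0.318, 0.533, 0.740 and 0.533 in control, TGF-β, BDS4 and RVX-208, so the COL4A2 mRNA was the more abundant in every library.

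The laminin pair behaved differently. The LAMB1 to LAMC1 ratio of counts was 0.432 in the control (0.419 to 0.446), 0.687 with TGF-β (0.670 to 0.704), 0.379 with BDS4 (0.362 to 0.396) and 0.638 with RVX-208 (0.619 to 0.657). The odds ratio was 1.59 for TGF-β against control (1.53 to 1.66), 0.551 for BDS4 against TGF-β (0.524 to 0.581) and 0.929 for RVX-208 against TGF-β (0.893 to 0.965). With BDS4 the ratio was below that of the control (odds ratio 0.877, 0.830 to 0.927). LAMB1 shares 0.860% of its exon bases with DLD on the opposite strand, which had between 2757 and 3723 counts. The library kit marks strand, but whether counting used it is not known, so reads of such pairs may mix.

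**Figure D3:**
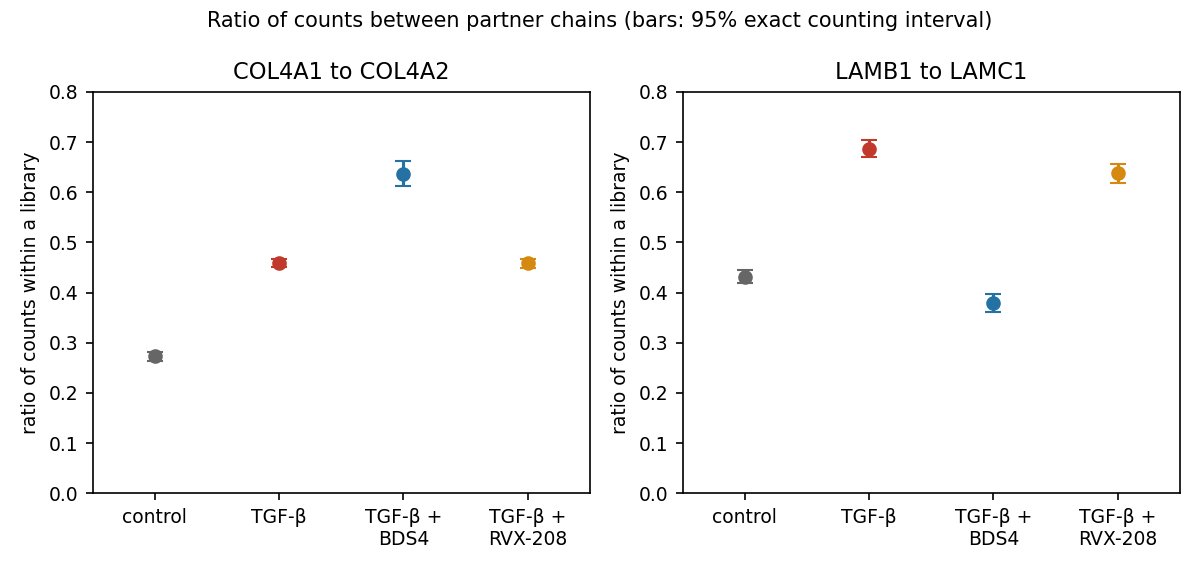
Ratio of counts of COL4A1 to COL4A2 (left) and of LAMB1 to LAMC1 (right) within each of the 4 libraries, with 95% exact counting intervals. The type IV collagen ratio is highest with BDS4 at 0.636, and the laminin ratio is lowest with BDS4 at 0.379.

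Over the 4 libraries, the pattern of COL4A1 was ranked for likeness against 10381 protein-coding genes with at least 10 CPM in the highest library. The measure was the distance between centred log2 levels. A gene could thus enter through 1 library, as SULF2 did through that with TGF-β alone. The nearest were SULF2, a heparan sulfate sulfatase, with a distance of 0.11, AMIGO2, an adhesion protein gene (0.25), PIK3IP1, an inhibitor of PI3 kinase (0.32), the syntaxin gene STX16 (0.32) and HACD2, an enzyme of fatty acid elongation (0.33). SULF2 had 2.22, 11.5, 2.11 and 9.50 CPM and AMIGO2 182, 742, 162 and 802 CPM in control, TGF-β, BDS4 and RVX-208. Within the set, COL4A2 ranked 45, LAMB1 61 and COL7A1 65 among these genes, LAMC1 434 and NID1 625, and HSPG2 7989. With 4 libraries this is a description.

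Other basement membrane components, a list of 29 genes of which 23 passed the filter, were set beside the 10, and differences between lists were not tested. With TGF-β 3 rose and 2 fell (median log2 ratio 0.29), where 9.68% of all genes tested were called. HMCN1, which encodes hemicentin-1, rose 5.02-fold (2.79 to 9.69) and COL8A2 2.61-fold (1.45 to 4.90), both from under 1 CPM. NTN4, which encodes a netrin that can interrupt laminin networks, fell 2.57-fold (2.39 to 2.77), from 118 to 45.9 CPM. COL4A6, a type IV collagen chain, fell 2.45-fold (1.93 to 3.13), opposite to COL4A1 and COL4A2. COL4A5, another such chain, stood at 26.8 CPM in the control and 15.0 with TGF-β, 1.79-fold lower (1.56 to 2.05). COL4A3 had at most 2 counts in any library.

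With BDS4 7 of the 23 fell against TGF-β and 1 rose (median -0.24), a share near the 32.2% of all genes called. SPARC, a collagen-binding glycoprotein, fell 5.85-fold (5.65 to 6.07), from 974 to 166 CPM. COL8A2 fell 12.6-fold (4.03 to 63.7), to 3 counts, and COL4A6 3.55-fold (2.26 to 5.75). LAMB3, a laminin β chain gene, and PXDN were also lower with BDS4 than with TGF-β. LAMB3 had 178, 217, 72.8 and 149 CPM and PXDN 322, 521, 175 and 426 CPM in control, TGF-β, BDS4 and RVX-208. The laminin α chains LAMA5 and LAMA1 were not called with BDS4 against TGF-β: LAMA5 had 364, 343, 244 and 292 CPM and LAMA1 46.0, 60.5, 99.4 and 54.8 CPM in control, TGF-β, BDS4 and RVX-208. LAMB2, an alternative to LAMB1 in laminin, had 268, 216, 242 and 206 CPM, and AGRN, the heparan sulfate proteoglycan agrin, 549, 550, 567 and 633 CPM. NID2, which encodes nidogen-2, had 43.0, 42.2, 56.4 and 42.5 CPM. AGRN and NID2, like HSPG2, stayed within 2-fold across the 4 libraries. With RVX-208, where 8.19% of all genes were called, 4 fell against TGF-β and 0 rose (median -0.23), among them HMCN1 (3.30-fold, 1.86 to 6.24), COL8A2 (2.40-fold, 1.26 to 4.89) and COL17A1 (2.37-fold, 1.69 to 3.38).

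Among 11 receptors of basement membranes, 2 rose with TGF-β and 0 fell (median -0.12). The shares of all genes called, against which this and the next lists are read, were 9.68% for TGF-β against control, 32.2% for BDS4 against TGF-β and 8.19% for RVX-208 against TGF-β. The 2 receptors that rose were the α chains of the collagen-binding integrins, ITGA1, 2.97-fold (2.70 to 3.27), and ITGA2, 3.01-fold (2.83 to 3.20). Both were also higher than in the control with BDS4 and with RVX-208, where ITGA2 had 285 and 264 CPM against 59.6. Against TGF-β alone, 1 receptor fell with BDS4, DDR1, from 49 to 19 counts, and 0 were called with RVX-208. Of 16 genes for the folding, modification and export of collagen, 15 passed the filter and 0 were called with TGF-β (median -0.03) or with RVX-208 (median 0.04). With BDS4 against TGF-β 2 of the 15 fell and 1 rose (median -0.09). SERPINH1, which encodes the collagen chaperone HSP47, fell 3.17-fold (2.93 to 3.42) and COLGALT1, a collagen galactosyltransferase, 2.17-fold (2.05 to 2.29). SERPINH1 was also lower with TGF-β alone than in the control, 132 against 251 CPM, but was not called there. P4HA1, a prolyl hydroxylase subunit, rose 2.51-fold (2.36 to 2.66), from 72.1 to 181 CPM.

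Of 13 proteases that cleave or process basement membrane proteins, 12 passed the filter. With TGF-β 4 rose and 0 fell (median 0.66), where 5.32% of all genes rose. MMP2 and MMP9, the gelatinases that degrade type IV collagen, rose 11.4-fold (10.5 to 12.5) and 2.97-fold (2.55 to 3.47). With BDS4 7 fell and 2 rose (median -1.46), where 17.7% of all genes fell. MMP9 fell 36.4-fold (22.3 to 64.1), MMP2 28.6-fold (24.7 to 33.4), the urokinase gene PLAU 18.1-fold (15.9 to 20.5) and MMP14, which activates MMP2, 8.51-fold (7.83 to 9.26). Genes for type IV collagen and for its proteases were therefore lower in the same library. With RVX-208 1 fell, MMP9 (4.26-fold, 3.48 to 5.25), and 0 rose (median -0.15).

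Fibrillar collagens were set beside the 10 genes, since they form the scar matrix proper. Of 11 genes 9 passed the filter. With TGF-β 5 rose and 0 fell (median 1.18), where 5.32% of all genes rose. With BDS4 7 fell and 1 rose (median -3.38), where 17.7% of all genes fell, and with RVX-208 3 fell and 1 rose (median -0.68), where 5.25% fell. COL1A1 had 2075, 4705, 103 and 2935 CPM in control, TGF-β, BDS4 and RVX-208. Its ratio of BDS4 to TGF-β was -5.52 on the log2 scale, where COL4A1 had -2.24 and COL4A2 -2.71. Not all fibrillar collagens fell so far. COL5A1 had 461, 1197, 243 and 999 CPM and COL5A2 745, 758, 139 and 676 CPM in control, TGF-β, BDS4 and RVX-208. From TGF-β to BDS4 both fell by amounts between those of COL4A1 and COL4A2. COL3A1, at 163 counts with TGF-β and 10 with RVX-208, fell 12.4-fold (6.59 to 26.4), where COL4A1 and COL4A2 were each 1.14-fold lower. All fibrillar collagens that fell with RVX-208 had under 10 CPM with TGF-β. The abundant COL1A1, COL5A1 and COL5A2 were not called there. With 1 library a group, the difference between the lists was not tested.

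**Figure D4:**
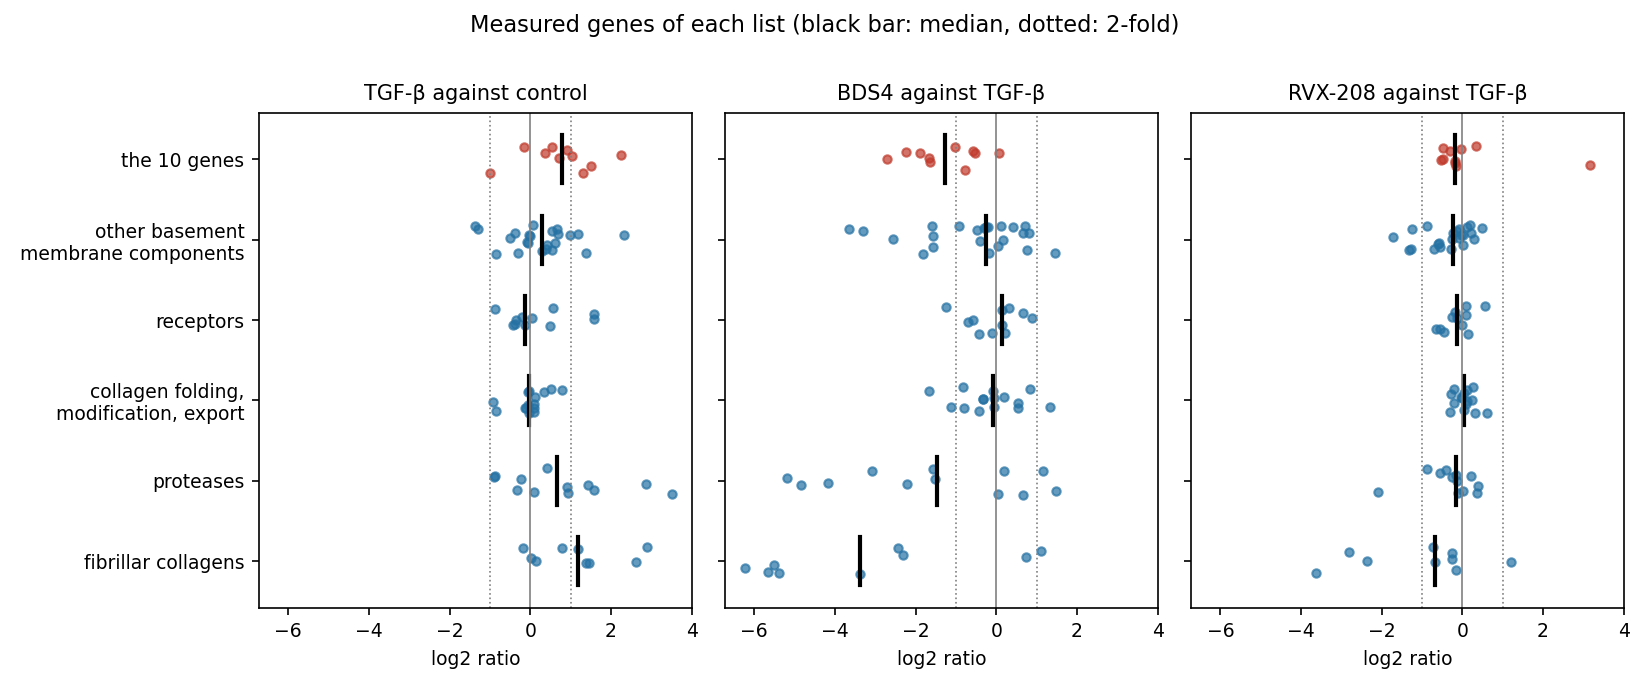
Log2 ratio (horizontal axis) of every gene that passed the filter in 6 gene lists (rows) for 3 comparisons, with the 10 genes in red, other lists in blue, list medians as black bars and 2-fold as dotted lines. With BDS4 the medians of the 10 genes, the proteases and the fibrillar collagens lie at -1.27, -1.46 and -3.38, while those of the receptors and of the folding genes lie near 0.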

How the data were processed

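Whole-number counts and FPKM per gene were deposited by the authors in 1 table for 4 libraries. FPKM came from StringTie 1.3.0, per the series' design text. The submitters' processing notes list CASAVA 1.8, TopHat2 2.0.6 and the build GRCh38. Not given in the sources used here are the annotation, the counting program and its use of strand. Columns were matched to groups through the sample descriptions, and the BDS4 column carries another code. In 9069 genes with over 200 counts in every library, FPKM equalled counts per total and per 1 fixed gene length, to within 0.000417%.

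Counts were scaled by TMM factors of 1.06 (control), 1.01 (TGF-β), 0.943 (BDS4) and 0.989 (RVX-208) with edgeR 4.0.16 in R 4.3.3. Conditional exact 95% intervals were computed in scipy 1.17.1. The rule was also run on simulated counts that held counting error alone, which cannot show how it behaves with variation between cultures. Library totals were 22503094, 21860122, 21618509 and 17022369 counts in that order, and intervals cover counting error only. Log2 medians use a prior count of 2. Lengths and overlaps came from GENCODE 29 and promoters from RefSeq. Of the 10 genes, 1 shares exon bases on its own strand, COL7A1, with a microRNA of 1 count.

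The genes named are the 10, up to 4 called genes per list and comparison with the largest log2 ratios, and the 5 nearest to COL4A1, with the highest genes of each marker list. One gene that this rule names is not reported here. Other named list genes (COL4A5, COL4A3, LAMA1, LAMA5, LAMB2, LAMB3, PXDN, AGRN, NID2, MMP15, PLAT, ACTA2, DES, LUM, DCN) were chosen after their values were seen. The 10 genes and the lists were chosen with earlier results of these data known. Alternatives were total-count scaling, DESeq2 1.42.0 size factors, no filter, a filter of 5 CPM, a 1.5-fold rule, summing of overlapping genes and another prior count.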

Additional observations from a re-analysis of the deposited data

How the results depend on the processing

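Of 354 values of the 10 genes recomputed under 6 alternatives, 14 changed their call and 0 reversed. DESeq2 size factors changed 0 of these calls. The 2 changes of filter could not change the call of a gene, since they only set which genes were kept. Summing of genes that share exons on the same strand also changed 0, but it added only 1 count per library, to COL7A1. Overlaps on opposite strands were not summed. Total-count scaling changed 3, those of LAMB1 in TGF-β against control and in BDS4 against control and of LAMC1 in BDS4 against RVX-208. A filter of 5 CPM left out COL15A1. The 1.5-fold rule added 11 calls, so that 4 of the 10 genes were called in BDS4 against control and 7 in RVX-208 against control. Over all genes the 1.5-fold rule called 3074 in TGF-β against control, 8201 in BDS4 against TGF-β, 2745 in RVX-208 against TGF-β, 6901 in BDS4 against RVX-208, 8467 in BDS4 against control and 3786 in RVX-208 against control. The filter of 5 CPM called 863 in TGF-β against control, 658 in RVX-208 against TGF-β and 1102 in RVX-208 against control. With the length of the longest protein-coding transcript, an alternative chosen after seeing the data, the COL4A1 to COL4A2 ratio was 0.268 in the control, 0.450 with TGF-β, 0.625 with BDS4 and 0.450 with RVX-208. The LAMB1 to LAMC1 ratio was then 0.591, 0.940, 0.518 and 0.873. With either prior count the same 5 genes were nearest to COL4A1. No paired analysis was possible because each group has 1 library. COL15A1 had 14 to 47 counts over the libraries, the lowest with BDS4. COL18A1 had 23 to 36 counts in all libraries but that with RVX-208. Depth limits what can be said of both genes at such counts.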
